A study of Mus musculus with 16 samples.

Results

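The 32 mitosis genes described here encode proteins that start, drive or check cell division: 4 cyclin and cyclin-dependent kinase genes, 6 mitotic and checkpoint kinases, 3 genes of regulated protein destruction and mitotic entry, 4 of chromosome structure and the passenger complex, 6 of the centromere and kinetochore, 6 of the spindle and 3 of cytokinesis. They were taken by symbol from a table of 20601 mouse genes. The list was chosen with earlier results of these data known. All 32 were listed, and all 32 were among the 15622 genes above 0 in at least 8 of 16 libraries, which were tested. Of the 32, 24 were above 0 in all 16 libraries.

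Polyadenylated RNA was sequenced from liver tumors and nontumor liver of 8 mice, in 4 groups of 4 libraries: ND nontumor, ND tumor, KD nontumor and KD tumor. Every mouse had received 19 µg of a plasmid that encodes human N-Ras, 1 µg of one for human c-Myc and 2 µg of one for the Sleeping Beauty transposase, by a rapid high-volume injection that carries DNA mainly into hepatocytes, so nontumor tissue came from livers that carried the oncogene plasmids too. Mice then ate either a normal diet (ND) or, from week 4 and for 4 weeks, a ketogenic diet (KD) in which fat made up 89.5%, protein 10.4% and carbohydrate 0.1%, and tissue was collected at week 8. The strain, the age, the plasmids' promoters and which tumor came from which liver are not given in the sources used here. Since 8 mice gave 16 libraries, these are not all independent, and p-values describe only the spread between them.

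Levels below are rescaled TPM. TPM, a transcript's share of a library on a fixed scale, divides reads by gene length and by the library's total, so genes can be set side by side. Each library's values were then divided by 1 factor, because the listed genes held 49.96% to 88.45% of the TPM total in 15 libraries but 7.38% in ND nontumor replicate 4. Reads recovered from the TPM steps came to 3.519 to 14.074 (in units of 1e6 reads) per library. The mitosis genes were thinly read: a member had a median of 36 reads in a library and at most 1247, and 11 of 512 values were at 0 reads. Fold changes are on the log2(rescaled TPM + 1) scale, which understates changes of low genes. A gene is called higher or lower where the Benjamini-Hochberg adjusted p of limma's moderated test, over all 15622 genes, was below 0.05.

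As background, a cell enters mitosis when Cdk1 bound to B-type cyclins becomes active, and leaves it when the anaphase-promoting complex marks those cyclins for destruction. Most hepatocytes of an adult liver rest outside the cell cycle, and the transcripts of these genes are known to accumulate in cells that have passed S phase. Many of their promoters are known to hold a cell cycle genes homology region (CHR) near the start site, bound in resting cells by the repressive DREAM complex and in dividing cells by B-Myb and FOXM1 with the MuvB core, and often CCAAT boxes upstream, bound by NF-Y.

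Promoter windows show what the genes share beyond their symbols. RefSeq promoters on GRCm38.p6, from 250 bases before to 50 after the start, were found for 28 of the 32 genes (30 promoters), not for Ccna2, Aurkb, Kif20a or Tpx2. A CHR, searched as TTTGAA or TTCGAA on both strands, lay in 25 of the 30 promoters, 83.3%, against 19.2% of all 32851 mouse promoters in the same table. A CCAAT box, searched as CCAAT on both strands, lay in 83.3% against 37.4%, and both motifs together in 76.7% against 7.5%. An E2F site (TTTCGCGC, TTTGGCGC, TTTCCCGC or TTTGCCGC, both strands) lay in 3.3%, the Cdk1 promoter alone, against 2.3%. In the 100 bases around the start, the CHR was in 80% of the promoters against 5.3%. A match is a run of letters, not a measured site. Other genes that the results turn on lie, in GENCODE M21 on GRCm38, at chr13:100778650-100786570 (Ccnb1, minus strand), chr7:122159439-122169873 (Plk1, plus), chr7:135689784-135716361 (Mki67, minus), chr5:30666777-30674830 (Cenpa, plus), chr17:71496100-71526857 (Ndc80, minus) and chr3:27097222-27153878 (Ect2, minus).

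The windows below run from 120 bases before to 30 after the start, 5′ to 3′ on the gene's strand, with CHR and CCAAT letters of either strand in capitals. Cdk1, Ube2c, Cdc20, Top2a, Kif11 and Racgap1 are shown because their transcripts were higher in tumors on both diets, Kif23 and Prc1 because theirs were not called on either diet, and Birc5 because its window holds neither motif though its transcript was called on both.
Cdk1, chr10:69352883-69353032, minus strand: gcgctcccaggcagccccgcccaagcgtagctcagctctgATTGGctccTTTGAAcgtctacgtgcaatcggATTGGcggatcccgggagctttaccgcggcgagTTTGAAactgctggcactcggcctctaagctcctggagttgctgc
Ube2c, chr2:164769809-164769958, plus strand: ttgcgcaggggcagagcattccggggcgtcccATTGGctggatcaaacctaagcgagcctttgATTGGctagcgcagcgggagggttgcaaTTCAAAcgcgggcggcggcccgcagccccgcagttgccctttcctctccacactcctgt
Cdc20, chr4:118437314-118437463, minus strand: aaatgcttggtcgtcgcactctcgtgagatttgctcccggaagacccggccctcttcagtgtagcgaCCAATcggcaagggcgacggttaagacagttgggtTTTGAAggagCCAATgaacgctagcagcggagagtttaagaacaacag
Top2a, chr11:99024160-99024309, minus strand: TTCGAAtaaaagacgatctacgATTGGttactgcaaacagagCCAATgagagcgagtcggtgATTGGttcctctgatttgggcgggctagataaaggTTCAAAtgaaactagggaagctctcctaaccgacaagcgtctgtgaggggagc
Kif11, chr19:37376262-37376411, plus strand: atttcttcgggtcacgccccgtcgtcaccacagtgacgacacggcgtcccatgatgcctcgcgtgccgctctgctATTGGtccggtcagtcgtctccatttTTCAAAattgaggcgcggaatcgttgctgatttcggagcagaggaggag
Racgap1, chr15:99651627-99651776, minus strand: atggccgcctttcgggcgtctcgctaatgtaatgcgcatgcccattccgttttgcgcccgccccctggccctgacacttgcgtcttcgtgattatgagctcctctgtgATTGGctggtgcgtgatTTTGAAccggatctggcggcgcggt
Kif23, chr9:61946770-61946919, minus strand: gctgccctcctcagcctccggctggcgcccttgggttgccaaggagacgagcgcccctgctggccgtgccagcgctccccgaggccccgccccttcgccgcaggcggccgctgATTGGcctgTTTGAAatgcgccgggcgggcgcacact
Prc1, chr7:80294331-80294480, plus strand: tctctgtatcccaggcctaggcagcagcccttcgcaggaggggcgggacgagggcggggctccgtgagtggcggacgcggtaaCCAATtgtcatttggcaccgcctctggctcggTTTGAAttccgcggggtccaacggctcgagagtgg
Birc5, chr11:117849117-117849266, plus strand: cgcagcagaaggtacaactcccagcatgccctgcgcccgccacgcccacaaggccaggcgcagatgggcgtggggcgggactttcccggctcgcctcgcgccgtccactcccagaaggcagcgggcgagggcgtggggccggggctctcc
Of the 35 CHR matches in the 30 promoters, 25 lay within 50 bases of the start. A CHR lay in the promoter of 13 of the 15 genes with a promoter that were called higher on both diets, 3 of 4 called on ND alone, 2 of 3 called on KD alone, and 5 of 6 called on neither.

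Tumors had more mitotic transcript than nontumor liver on both diets. On ND, 21 of the 32 genes were called higher and 0 lower, where 13% of all genes tested were called higher and 12.8% lower. On KD, 20 were called higher and 0 lower, where 13.8% of all genes were higher and 13.9% lower. The median log2 fold change of the 32 was 1.00 on ND and 0.81 on KD, beside -0.01 and 0.00 over all genes. It lay above 0 for 31 genes on ND and for 32 on KD. Because the list was chosen with earlier results known, its excess over all genes is descriptive, not an independent test. The summed level of the 32 genes was 41.5 ± 7.9 rescaled TPM in ND nontumor and 131.2 ± 32.3 in ND tumor (SD, n = 4 each). On KD it was 43.6 ± 23.3 in nontumor liver and 128.0 ± 48.9 in tumor (SD, n = 4 each). In bulk tissue, more dividing cells and more of these transcripts per cell cannot be told apart, nor can fewer cells of a type and less RNA per cell.

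**Figure D1:**
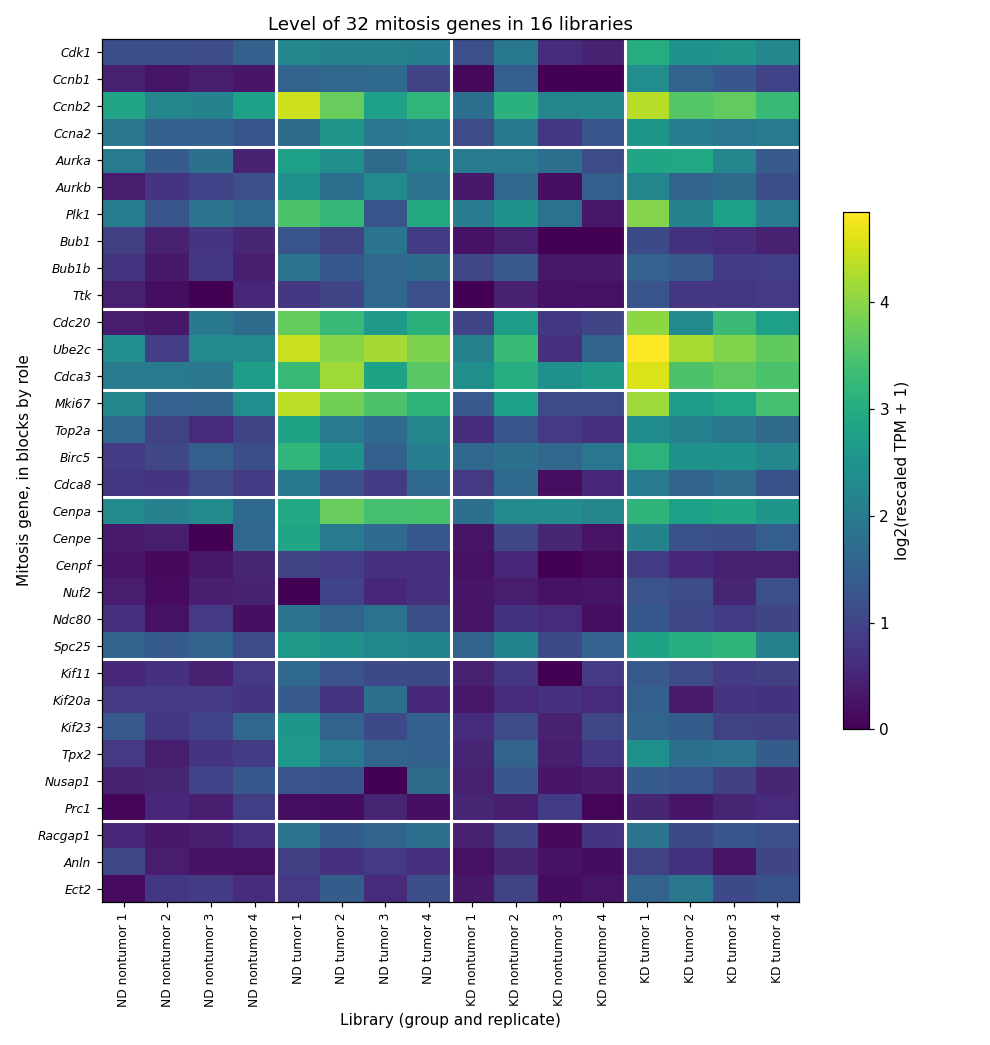
Heat map of log2(rescaled TPM + 1) for the 32 mitosis genes (rows, in blocks by role) in the 16 libraries (columns, by group and replicate). Brighter cells are higher values. The 8 tumor columns are brighter than the nontumor columns for most genes, KD nontumor replicate 2 stands out among nontumor columns, and Prc1 is dark throughout.

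Of the 32 genes, 16 were called on both diets, 5 on ND alone (Aurkb, Bub1, Bub1b, Cenpe and Cenpf), 4 on KD alone (Ccna2, Cdca8, Nuf2 and Ect2), and 7 on neither (Aurka, Plk1, Kif20a, Kif23, Nusap1, Prc1 and Anln). Calls on 1 diet do not show a difference between diets. The counts by role below stand beside 13% of all genes called higher on ND and 13.8% on KD. Counting libraries without a model, the 4 tumors lay above all 4 nontumor libraries for 18 genes on ND (12.4% of all genes) and for 15 on KD (14.4% of all genes). All 8 tumors lay above all 8 nontumor libraries for Cdk1, Ttk, Ube2c, Top2a, Cenpa, Ndc80, Kif11 and Racgap1, where 4.38% of all genes did so. No member had all 8 tumors below (4.87% of all genes). On TPM as deposited, where ND nontumor replicate 4 has its low total, 16 members were called higher on ND (7.06% of all genes) and 4 on KD (2.32% of all genes). Without that library, on the same deposited scale, 15 were called on each diet (8.12% of all genes higher on ND and 7.63% on KD), an alternative chosen after the data were seen.

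**Figure D2:**
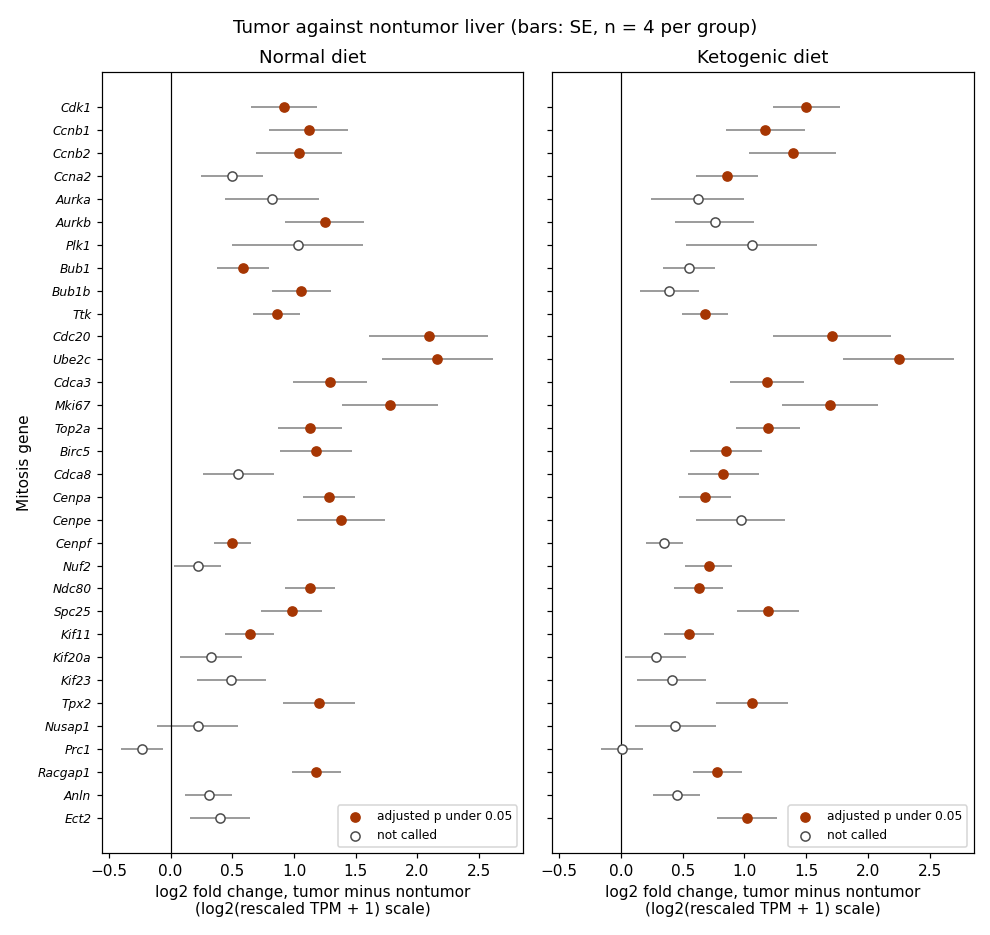
Log2 fold change, tumor against nontumor liver, of each mitosis gene on ND and on KD, from limma on log2(rescaled TPM + 1). Bars are standard errors and filled points have an adjusted p below 0.05. Nearly all points lie right of 0, from Ube2c at 2.16 on ND and 2.25 on KD to Prc1 at -0.23 and 0.01.

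Among the cyclins and Cdk1, 3 of 4 genes were called higher on ND and 4 of 4 on KD. Cdk1, the kinase that drives entry into mitosis, had 1.23, 1.25, 1.21 and 1.81 rescaled TPM in the ND nontumor libraries (replicates 1 to 4, the order used throughout) and 3.73, 3.45, 3.44 and 3.24 in the ND tumors. Its KD values were 1.27, 2.91, 0.541 and 0.388 in nontumor liver and 6.98, 4.56, 4.73 and 3.74 in tumors. Every tumor exceeded every nontumor library, and the nontumor libraries spread more on KD than on ND. The log2 fold change was 0.92 (SE 0.27, adjusted p = 0.018) on ND and 1.5 (SE 0.27, adjusted p = 0.000697) on KD. Ccnb1, cyclin B1, its activating partner, had 0.35, 0.208, 0.293 and 0.223 in ND nontumor liver against 1.91, 2.11, 2.16 and 0.996 in ND tumors. On KD, Ccnb1 had 0.072, 1.72, 0 and 0 in nontumor liver and 4.18, 1.93, 1.48 and 0.968 in tumors. The ND groups did not overlap, while KD nontumor replicate 2 was above KD tumor replicates 3 and 4. Ccnb1 rose by 1.12 (SE 0.32, adjusted p = 0.0161) on ND and 1.17 (SE 0.32, adjusted p = 0.0118) on KD. Ccnb2, cyclin B2, rose by 1.04 and 1.39 on the log2 scale, with the ND call held in 17 of 25 other settings. Ccna2, cyclin A2, which acts in S phase and early mitosis, rose by 0.86 on KD (adjusted p = 0.0198), while its ND change was 0.50 (adjusted p = 0.166).

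**Figure D3:**
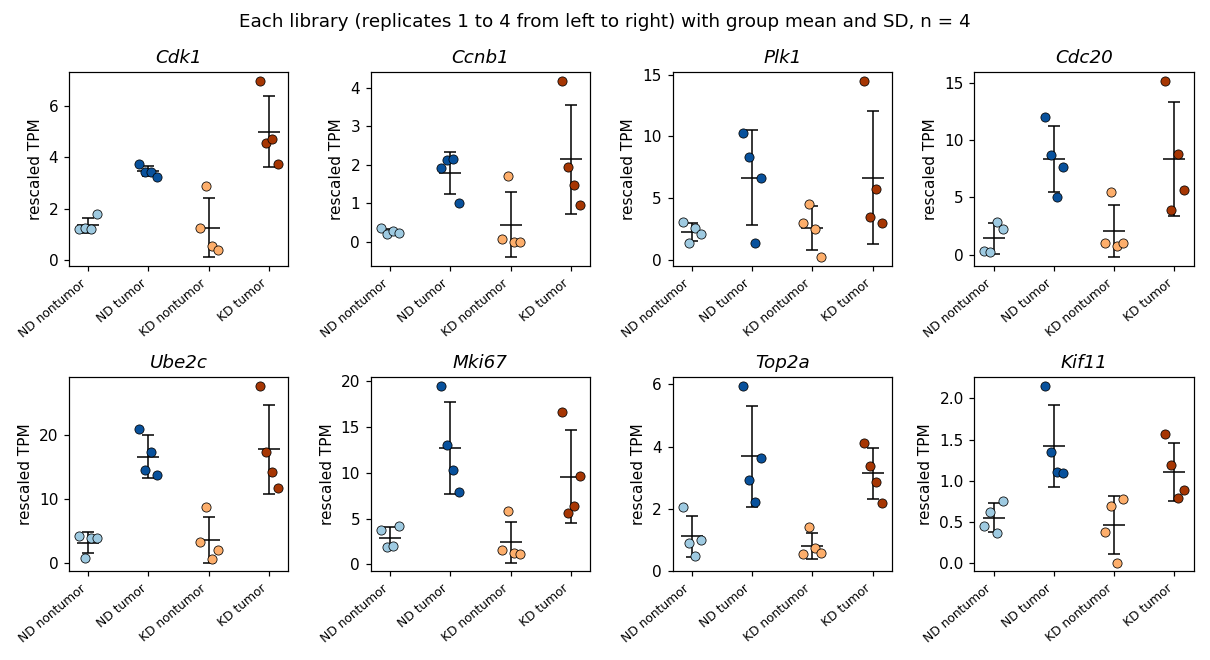
Rescaled TPM of Cdk1, Ccnb1, Plk1, Cdc20, Ube2c, Mki67, Top2a and Kif11 in each library, with points for libraries and bars for the mean and SD of 4. The Ube2c tumor points lie between 11.7 and 27.7, above all nontumor points, while the Plk1 groups overlap, with 1 KD tumor at 14.5 and 1 ND tumor at 1.38.

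Of the 6 mitotic kinases, 4 were called higher on ND (13% of all genes) and 1 on KD (13.8% of all genes). The interaction between tissue and diet called 0 of these 6. Plk1, Polo-like kinase 1, which acts from centrosome maturation to cytokinesis, had 3.1, 1.4, 2.62 and 2.14 rescaled TPM in ND nontumor liver and 10.3, 8.37, 1.38 and 6.65 in ND tumors. Under KD it had 3.06, 4.58, 2.53 and 0.249 in nontumor liver and 14.5, 3.47, 5.78 and 3.01 in tumors. ND tumor replicate 3 lay at the bottom of the nontumor range, and the groups overlapped on both diets. The Plk1 fold changes, 1.03 (SE 0.53, adjusted p = 0.167) and 1.06 (SE 0.53, adjusted p = 0.148), were as large as those of called genes but not called. Aurkb, the kinase of the chromosomal passenger complex, had 0.313, 0.671, 0.978 and 1.28 in ND nontumor liver and 4.45, 2.35, 3.94 and 2.53 in ND tumors, which did not overlap. On KD its values were 0.259, 2.11, 0.151 and 1.77 in nontumor liver and 3.65, 1.94, 2.29 and 1.25 in tumors, which did. Aurkb rose by 1.25 on ND (SE 0.32, adjusted p = 0.00957), and its KD change was 0.76 (adjusted p = 0.0955). Among the spindle checkpoint kinases, which hold back anaphase until chromosomes are attached, Ttk rose on both diets, by 0.86 (adjusted p = 0.00317) and 0.68 (adjusted p = 0.0134). Bub1b rose by 1.06 on ND (adjusted p = 0.00375), with 0.39 on KD (adjusted p = 0.236). Bub1 was called on ND at 0.59 (adjusted p = 0.0442), with 0.55 on KD (adjusted p = 0.0588). The ND call held in 10 of 25 other settings, and Bub1 was called on KD in 8 of 25. Aurka, the centrosomal Aurora kinase, was called on neither diet, at 0.82 and 0.62.

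The 3 genes of protein destruction and mitotic entry were called higher on both diets. Ube2c, the ubiquitin-conjugating enzyme of the anaphase-promoting complex, had 4.18, 0.844, 3.88 and 3.98 rescaled TPM in ND nontumor liver and 21.1, 14.5, 17.4 and 13.8 in ND tumors. Its KD values were 3.35, 8.77, 0.599 and 2.00 in nontumor liver and 27.7, 17.5, 14.3 and 11.7 in tumors. No tumor overlapped any nontumor library, although KD nontumor replicate 2 came closest. Ube2c rose by 2.16 (SE 0.45, adjusted p = 0.00221) on ND and 2.25 (SE 0.45, adjusted p = 0.00168) on KD. Cdc20, which activates the same complex at anaphase, had 0.296, 0.235, 2.86 and 2.27 in ND nontumor liver and 12, 8.68, 5.07 and 7.62 in ND tumors, without overlap. The KD values were 0.981, 5.47, 0.714 and 1.03 in nontumor liver and 15.2, 3.9, 8.81 and 5.62 in tumors, and KD nontumor replicate 2 exceeded KD tumor replicate 2. Cdc20 rose by 2.09 (SE 0.48, adjusted p = 0.00442) on ND and 1.71 (SE 0.48, adjusted p = 0.0142) on KD. Cdca3, which promotes mitotic entry by helping to destroy Wee1, rose by 1.29 (adjusted p = 0.00446) and 1.18 (adjusted p = 0.00767).

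Chromosome structure and passenger genes were called higher for 3 of 4 on ND and 4 of 4 on KD. Mki67, whose protein coats mitotic chromosomes and is the Ki-67 marker of dividing cells, had 3.7, 1.88, 1.96 and 4.16 rescaled TPM in ND nontumor liver and 19.5, 13.1, 10.3 and 7.85 in ND tumors. In KD libraries it had 1.61, 5.78, 1.19 and 1.17 in nontumor liver and 16.7, 5.61, 6.41 and 9.64 in tumors. ND groups were apart, and KD nontumor replicate 2 was just above KD tumor replicate 2. Mki67 rose by 1.78 (SE 0.39, adjusted p = 0.0032) on ND and 1.69 (SE 0.39, adjusted p = 0.00438) on KD. Top2a, the topoisomerase that untangles sister chromatids, had 2.07, 0.925, 0.502 and 0.991 in ND nontumor liver and 5.96, 2.94, 2.22 and 3.64 in tumors. On KD the Top2a values were 0.542, 1.41, 0.74 and 0.577 in nontumor liver and 4.12, 3.38, 2.86 and 2.20 in tumors. Neither diet's groups overlapped, and Top2a rose by 1.13 (SE 0.26, adjusted p = 0.00447) and 1.19 (SE 0.26, adjusted p = 0.00318). Birc5, survivin, which docks the passenger complex at centromeres, had 0.813, 1.03, 1.75 and 1.24 in ND nontumor liver against 8.08, 4.54, 1.84 and 3.27 in tumors. On KD, Birc5 had 2.11, 2.44, 2.03 and 2.74 in nontumor liver and 7.75, 4.53, 4.57 and 3.71 in tumors. Groups did not overlap on either diet, though ND tumor replicate 3 was close to the nontumor range, and Birc5 rose by 1.18 (adjusted p = 0.00648) and 0.85 (adjusted p = 0.038). Cdca8, borealin, a partner of survivin, rose by 0.83 on KD (adjusted p = 0.0419), beside 0.55 on ND (adjusted p = 0.18). On KD the Cdca8 call held in 11 of 25 other settings and the Birc5 call in 14 of 25.

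For the centromere and kinetochore, the protein assembly that joins chromosomes to spindle microtubules, 5 of 6 genes were called higher on ND and 4 of 6 on KD. Cenpa, the histone H3 variant that marks centromeres, had 3.96, 3.3, 3.93 and 2.17 rescaled TPM in ND nontumor liver and 6.64, 12.2, 9.63 and 9.87 in ND tumors. In KD libraries it had 2.45, 3.84, 4.02 and 3.6 in nontumor liver and 7.9, 5.71, 6.28 and 4.84 in tumors. Tumors were above nontumor liver throughout, with the KD tumors mostly below the ND tumors. Cenpa rose by 1.28 (SE 0.21, adjusted p = 0.000377) on ND and 0.68 (SE 0.21, adjusted p = 0.0251) on KD. Ndc80, the microtubule-binding subunit that gives its complex its name, had 0.568, 0.169, 0.76 and 0.145 in ND nontumor liver and 2.57, 1.95, 2.56 and 1.23 in tumors. On KD, Ndc80 had 0.188, 0.638, 0.514 and 0.126 in nontumor liver and 1.53, 1.07, 0.818 and 1.02 in tumors. Again no tumor overlapped a nontumor library, and Ndc80 rose by 1.13 (SE 0.20, adjusted p = 0.000609) and 0.63 (SE 0.20, adjusted p = 0.0256). The KD calls of Cenpa and Ndc80 each held in 19 of 25 other settings. Its complex partners were Spc25, which rose by 0.98 and 1.19, and Nuf2, which rose by 0.71 on KD alone (adjusted p = 0.0118), with 0.22 on ND (adjusted p = 0.448). Cenpe, a kinetochore motor, rose by 1.38 on ND (adjusted p = 0.0103), with 0.97 on KD (adjusted p = 0.0562). Cenpf, a large fibrous-corona protein, rose by 0.50 on ND (adjusted p = 0.0213), with 0.35 on KD (adjusted p = 0.0973).

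Of the 6 spindle genes, 2 were called higher on each diet, Kif11 and Tpx2. Kif11, the kinesin-5 motor that pushes spindle poles apart, had 0.445, 0.618, 0.358 and 0.756 rescaled TPM in ND nontumor liver and 2.15, 1.35, 1.1 and 1.09 in tumors. On KD it had 0.368, 0.694, 0 and 0.77 in nontumor liver and 1.57, 1.18, 0.782 and 0.886 in tumors. All tumors lay above all nontumor libraries, by a narrow margin on KD, and Kif11 rose by 0.64 (SE 0.20, adjusted p = 0.0255) and 0.55 (SE 0.20, adjusted p = 0.0474). The ND call held in 19 of 25 other settings and the KD call in 8 of 25. Tpx2, a spindle assembly factor that activates Aurora A, had 0.749, 0.329, 0.66 and 0.804 in ND nontumor liver and 5.02, 2.92, 1.91 and 1.85 in tumors. On KD, Tpx2 had 0.424, 1.93, 0.333 and 0.702 in nontumor liver and 4.4, 2.41, 2.58 and 1.70 in tumors. Only KD nontumor replicate 2 reached into the tumor range, and Tpx2 rose by 1.20 (adjusted p = 0.00547) and 1.06 (adjusted p = 0.0114).

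Kif20a, a kinesin of the late spindle midzone, had 0.765, 0.759, 0.759 and 0.65 rescaled TPM in ND nontumor liver and 1.61, 0.684, 2.47 and 0.468 in tumors, with 2 tumors above and 2 within or below the nontumor range. Its KD values were 0.246, 0.512, 0.615 and 0.505 in nontumor liver and 1.8, 0.28, 0.687 and 0.627 in tumors. Kif20a changed by 0.33 (adjusted p = 0.373) and 0.28 (adjusted p = 0.451), neither called. The other midzone genes were not called either: Kif23, the motor of the centralspindlin complex, had 0.49 and 0.41, and Prc1, which bundles midzone microtubules, had -0.23 (adjusted p = 0.362) and 0.01 (adjusted p = 0.961). Prc1 was the lowest member in tumors, though not in nontumor liver. Its means were 0.433 rescaled TPM in ND nontumor liver, 0.202 in ND tumors, 0.4 in KD nontumor liver and 0.395 in KD tumors. Nusap1, a spindle-associated protein that binds and bundles microtubules, had 0.22 and 0.44.

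In cytokinesis, 1 of 3 genes was called higher on ND and 2 of 3 on KD. Racgap1, the GTPase-activating subunit of centralspindlin, was called on both, at 1.18 (SE 0.20, adjusted p = 0.00054) and 0.78 (SE 0.20, adjusted p = 0.00937), with every tumor above every nontumor library. Ect2, the exchange factor that activates RhoA at the cleavage site, had 0.103, 0.734, 0.802 and 0.524 rescaled TPM in ND nontumor liver and 0.746, 1.69, 0.497 and 1.23 in ND tumors. On KD, Ect2 had 0.255, 0.934, 0.124 and 0.203 in nontumor liver and 1.9, 2.86, 1.11 and 1.33 in tumors. The ND groups overlapped and the KD groups did not. Ect2 rose by 1.02 on KD (SE 0.24, adjusted p = 0.00544), and its ND change was 0.40 (adjusted p = 0.254). Anln, anillin, a scaffold of the contractile ring, had 1.04, 0.315, 0.182 and 0.156 in ND nontumor liver and 0.886, 0.611, 0.768 and 0.598 in tumors. On KD, Anln had 0.168, 0.441, 0.172 and 0.121 in nontumor liver and 0.95, 0.631, 0.186 and 1.03 in tumors. A single library crossed into the other group on each diet, ND nontumor replicate 1 and KD tumor replicate 3, and Anln was not called, at 0.31 (adjusted p = 0.265) and 0.45 (adjusted p = 0.0972).

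Per length, the levels themselves were modest. Averaged over the 8 tumors, Ube2c was the highest at 17.25 rescaled TPM, followed by Ccnb2 at 12.22, Cdca3 at 12.19 and Mki67 at 11.13. Cenpf at 0.62 and Prc1 at 0.30 were the lowest. For 30 of 31 pairs of neighbours in this order the gap was below the SD over the 8 tumors of both genes. The exception was Cenpf and Prc1. Only neighbours were set side by side, without pairing genes within a library. It therefore cannot show that genes far apart in the order are unresolved. Over the 8 nontumor libraries the same 4 leading genes averaged 3.45, 4.55, 4.42 and 2.68.

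In 3 of the 4 groups, 1 library was the highest for most members. KD nontumor replicate 2 had a summed member level of 78.4 rescaled TPM, where its group ranged from 29.2, and it was the highest of the 4 for 26 of 32 genes, against 20.1% of 15590 genes that are not members and 44.4% of the 2008 of those called higher in ND tumors. That library had the lowest sums in its group for T and NK cell markers (12.1), B cell markers (14.6) and Kupffer cell markers (97.8), and the highest for cholangiocyte (257.0) and hepatocyte markers (82320.4). Their part in its high mitotic values was not tested. Of the tumors, KD tumor replicate 1 had the highest sum (199.8) and led its group for 27 of 32 genes (24.2% of the genes that are not members), and ND tumor replicate 1 (173.5) led for 21 (26.5%). In ND nontumor liver no library led for most, with replicates 1 to 4 the highest for 12, 0, 6 and 14 genes. Without KD nontumor replicate 2, 23 members were called higher on KD (14.3% of all genes), and without KD tumor replicate 1, 13 were (11.3% of all genes).

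Markers of other cells were counted in the same comparisons. On ND 13% of all genes tested were called higher and 12.8% lower, and on KD 13.8% and 13.9%. Marker counts near these shares are not read as changes of a cell type. No list had a gene at 0 in all 4 libraries of a group, and hepatocyte markers were abundant everywhere. Their summed rescaled TPM was 43950.0 to 80412.9 in ND nontumor liver and 69901.2 to 125561.3 in ND tumors, with 1 of 8 genes higher and 1 lower. On KD the hepatocyte sums were 27503.6 to 82320.4 and 124273.0 to 185826.4, without overlap, with 3 of 8 higher and 1 lower. The Kupffer cell list fell, with 5 of 5 genes called lower on ND and 4 of 5 on KD. Its sums were 187.5 to 270.8 in ND nontumor liver and 7.5 to 31.4 in ND tumors, and 97.8 to 163.2 and 25.5 to 53.4 on KD. Of 6 erythroid genes, 4 were lower on ND (sums of 1188.6 to 6605.5 in nontumor liver and 271.3 to 1374.6 in tumors) and 0 on KD. T and NK cell marker sums were 9.9 to 25.2 and 25.1 to 94.8 on ND, with 3 of 10 genes called higher. On KD they were 12.1 to 24.9 and 12.5 to 43.3, with 1 of 10. Macrophage and monocyte sums were 103.3 to 130.8 and 121.5 to 303.8 on ND, with 1 of 8 higher and 1 lower, and 64.5 to 102.3 and 104.5 to 184.4 on KD, with 2 higher and 0 lower. Other lists held genes that moved in opposite directions. Cholangiocyte sums were 116.6 to 198.6 and 521.8 to 1923.3 on ND, with 2 of 5 genes higher and 1 lower, and 37.8 to 257.0 and 747.7 to 2520.1 on KD, with 1 higher and 0 lower. Stellate cell and fibroblast sums were 65.7 to 145.5 and 93.1 to 204.9 on ND, with 2 of 7 higher and 2 lower, and 35.8 to 81.7 and 117.3 to 285.4 on KD, with 4 higher and 1 lower. Endothelial genes were higher for 4 of 7 and lower for 2 on ND, and higher for 1 and lower for 0 on KD. B cell and neutrophil sums overlapped between the tissues on both diets. Whether any of these cells carried the mitotic transcripts was not tested.

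Between the diets, no mitosis gene was called. In tumors, 0 of 32 were higher and 0 lower on KD than on ND by limma, where 5.79% of all genes were higher and 7.17% lower. At an unadjusted p under 0.05 there were 4, against 29.8% of all genes. Voom on recovered reads called 0 (7.46% of all genes higher, 7.98% lower), and the median difference (KD minus ND) was -0.04. On TPM as deposited 0 were called, where 0.109% of all genes were higher and 0.358% lower. Scaling the listed genes to a common sum called 4 lower, Bub1, Bub1b, Cenpa and Ndc80, where 16.1% of all genes were lower. The intervals below are on the log2(rescaled TPM + 1) scale, which understates changes of low genes. They do not bound changes in rescaled TPM itself. Bub1, for example, averaged 0.661 rescaled TPM in KD tumors and 1.46 in ND tumors. Cenpa had -0.55 on the log2 scale (95% interval -1.0 to -0.10, adjusted p = 0.0968), Ndc80 had -0.53 (-0.95 to -0.11, adjusted p = 0.0868) and Bub1 -0.53 (-0.97 to -0.10, adjusted p = 0.0976). Nuf2 had 0.45 (0.04 to 0.86, adjusted p = 0.134) and Ect2 0.45 (-0.06 to 0.97, adjusted p = 0.223). Mki67 had -0.41 (-1.24 to 0.42), Ube2c 0.04 (-0.92 to 0.99) and Plk1 -0.01 (-1.12 to 1.10), intervals that leave room for changes of either sign. Cdk1 was the gene whose 4 KD tumors (3.74 to 6.98 rescaled TPM) all lay above the 4 ND tumors (3.24 to 3.73), an order found for 11.1% of all genes, and no member had the opposite order (9.46% of all genes). Its difference was 0.40 (-0.16 to 0.96, adjusted p = 0.332). Hepatocyte marker sums ran from 124273.0 to 185826.4 in KD tumors and from 69901.2 to 125561.3 in ND tumors, with 0 of 8 called. Kupffer cell genes were higher on KD for 2 of 5, neutrophil genes for 1 of 5 and endothelial genes for 2 of 7, while 3 endothelial genes and 1 of 5 cholangiocyte genes were lower. The part of other cells in these differences was not tested.

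**Figure D4:**
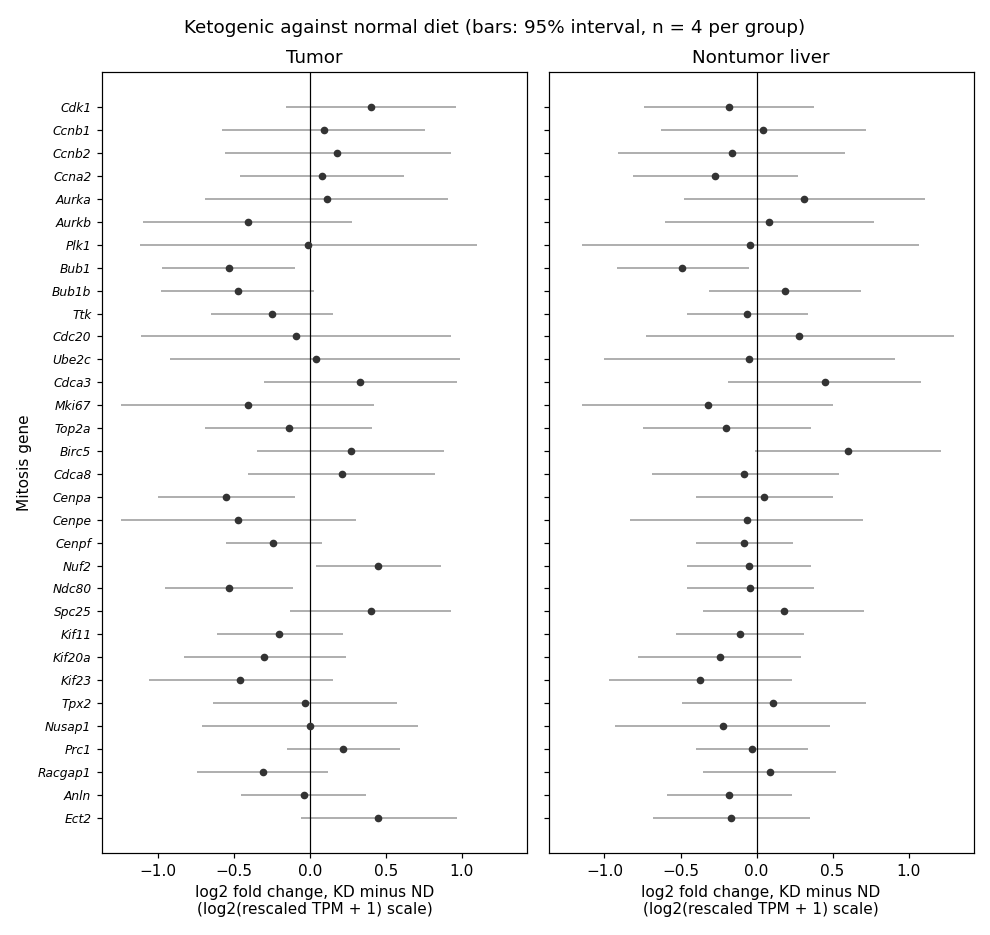
Difference KD minus ND in log2(rescaled TPM + 1) for each mitosis gene, with 95% intervals from limma, in tumors and in nontumor liver. Points lie on both sides of 0, from Cenpa at -0.55 to Nuf2 and Ect2 at 0.45 in tumors, and most intervals cross 0.

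In nontumor liver limma called 0 of 32 higher and 0 lower, where 0.0128% of all genes were higher and 0.0256% lower. At an unadjusted p under 0.05 there was 1, Bub1, against 8.71% of all genes, and voom called 0 (0.0128% of all genes higher, 0.0256% lower). Birc5 was above ND in every KD nontumor library, an order found for 3% of all genes, with 0.60 (-0.01 to 1.21, adjusted p = 0.586). Bub1 and Kif20a were below ND in every KD library, an order found for 2.67% of all genes, with -0.49 (-0.92 to -0.05, adjusted p = 0.503) and -0.24 (-0.78 to 0.29, adjusted p = 0.868). The tumor effect itself was compared between diets by the interaction term. It called 0 of 32 in each direction (0.115% of all genes higher, 0.23% lower), with 0 at an unadjusted p under 0.05 (16.5% of all genes) and 0 by voom. Its extremes were Bub1b at -0.66 (-1.38 to 0.05, adjusted p = 0.332) and Ect2 at 0.62 (-0.11 to 1.35, adjusted p = 0.375), so the calls on 1 diet alone are not shown to differ between diets.

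The transcription factors known to drive these promoters were measured in the same libraries. Foxm1, the forkhead factor of G2 genes, had 1.95, 0.305, 0.822 and 2.78 rescaled TPM in ND nontumor liver and 5.29, 3.71, 3.04 and 2.54 in ND tumors. On KD it had 0.637, 1.62, 0.773 and 0.285 in nontumor liver and 2.83, 1.99, 1.55 and 1.62 in tumors. One nontumor library reached the tumor range on each diet, and Foxm1 rose by 1.00 on ND (SE 0.31, adjusted p = 0.0245), with 0.74 on KD (adjusted p = 0.0832). Mybl2, B-Myb, had 1.39, 1.23, 2.18 and 3.05 in ND nontumor liver and 4.25, 1.96, 3.51 and 3.04 in ND tumors. On KD, Mybl2 had 1.02, 1.63, 1.06 and 1.3 in nontumor liver and 1.8, 0.486, 1.29 and 0.462 in tumors, where 2 of 4 tumors lay below all nontumor libraries. It was called in neither tumor comparison, at 0.51 (adjusted p = 0.15) and -0.21 (adjusted p = 0.566). Between diets, the KD tumors all lay below the ND tumors and Mybl2 was lower on KD, at -1.09 (SE 0.25, adjusted p = 0.0125). It kept that call in 24 of 25 other settings, the exception being TPM as deposited (adjusted p = 0.181).

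At the G1 gate before division, Ccnd1, cyclin D1, had 1.45, 1.91, 2.23 and 2.5 rescaled TPM in ND nontumor liver and 4.8, 5.46, 7.32 and 3.57 in ND tumors. On KD it had 2.46, 2.83, 1.42 and 1.4 in nontumor liver and 8.14, 8.35, 18.6 and 7.68 in tumors. No groups overlapped, and Ccnd1 rose by 1.04 (SE 0.27, adjusted p = 0.00978) and 1.89 (SE 0.27, adjusted p = 0.000131). All KD tumors were above all ND tumors, with 0.84 (0.27 to 1.41, adjusted p = 0.051). Cdkn1a, p21, which blocks cyclin-dependent kinases, had 10.7, 13, 16 and 9.53 in ND nontumor liver and 63.8, 50.4, 46.1 and 76.5 in tumors. On KD, Cdkn1a had 29.2, 23.7, 1.88 and 3.24 in nontumor liver and 47.4, 78.3, 61.3 and 23.0 in tumors. Apart from KD tumor replicate 4, tumors were above nontumor liver, and Cdkn1a rose by 2.17 (adjusted p = 0.0138) and 2.32 (adjusted p = 0.00873). The CDK inhibitor genes Cdkn2a and Cdkn2b rose as well, by 3.62 and 4.50 on ND and by 4.35 and 3.99 on KD.

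The other genes of the pathway were counted by the same test, against the background shares given for each diet above. Of 36 further kinetochore and checkpoint genes tested, 9 were called higher and 0 lower on ND, and 6 and 1 on KD. Cenph and Cenpm, of the inner kinetochore, rose on both diets, Cenpm by 2.64 (SE 0.60, adjusted p = 0.00423) and 2.65 (SE 0.60, adjusted p = 0.00406). Of 30 further spindle genes, 11 were higher and 0 lower on ND, and 9 and 1 on KD. Psrc1, a microtubule regulator, had 1.33 ± 0.99 rescaled TPM in ND nontumor liver and 190.6 ± 42.85 in ND tumors (SD, n = 4 each), a log2 fold change of 6.43 (adjusted p = 9.37e-08). On KD it had 1.73 ± 1.16 and 88.92 ± 48.29 (SD, n = 4 each), a change of 4.88 (adjusted p = 2.5e-06). Numa1, which anchors spindle poles, fell by 1.08 on KD. Of 14 genes of entry control, 4 were higher on ND and 5 on KD with 0 lower, led by Cdkn3 at 1.56 and 2.15. Of 10 further cytokinesis genes, 3 were higher and 0 lower on each diet.

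Lists next to mitosis were counted beside the same background shares. On ND 13% of all genes were higher and 12.8% lower, and on KD 13.8% and 13.9%. Counts near these shares are not read as a trait of a list. Of 42 genes of DNA replication and S phase, 7 were higher and 0 lower on ND, and 10 and 1 on KD. Ccne1, cyclin E1, which starts S phase, rose by 2.04 (adjusted p = 0.00113) and 3.26 (adjusted p = 2.76e-05), while Tk1, thymidine kinase, fell by 1.40 on KD (adjusted p = 0.000207). Of 17 subunits and brakes of the anaphase-promoting complex, whose cofactors Ube2c and Cdc20 are among the 32, 1 was higher and 1 lower on ND, and 0 and 3 on KD. Anapc15, which helps turn over checkpoint complexes, fell on both, at -1.82 on ND (adjusted p = 0.000196) and -0.93 on KD (adjusted p = 0.02). Of 21 condensin, cohesin control and separation genes, 4 were higher and 1 lower on ND, and 1 and 1 on KD. Pttg1, securin, which holds back sister separation, fell by 1.05 on ND (adjusted p = 0.00119). Of 19 transcriptional regulators, 2 were higher and 4 lower on each diet. E2f8, an atypical E2F repressor, fell on both, at -1.93 on ND (adjusted p = 0.000206) and -2.10 on KD (adjusted p = 0.000124). Of 16 G1 cyclin and inhibitor genes, 9 were higher and 1 lower on ND, and 8 and 1 on KD.

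**Figure D5:**
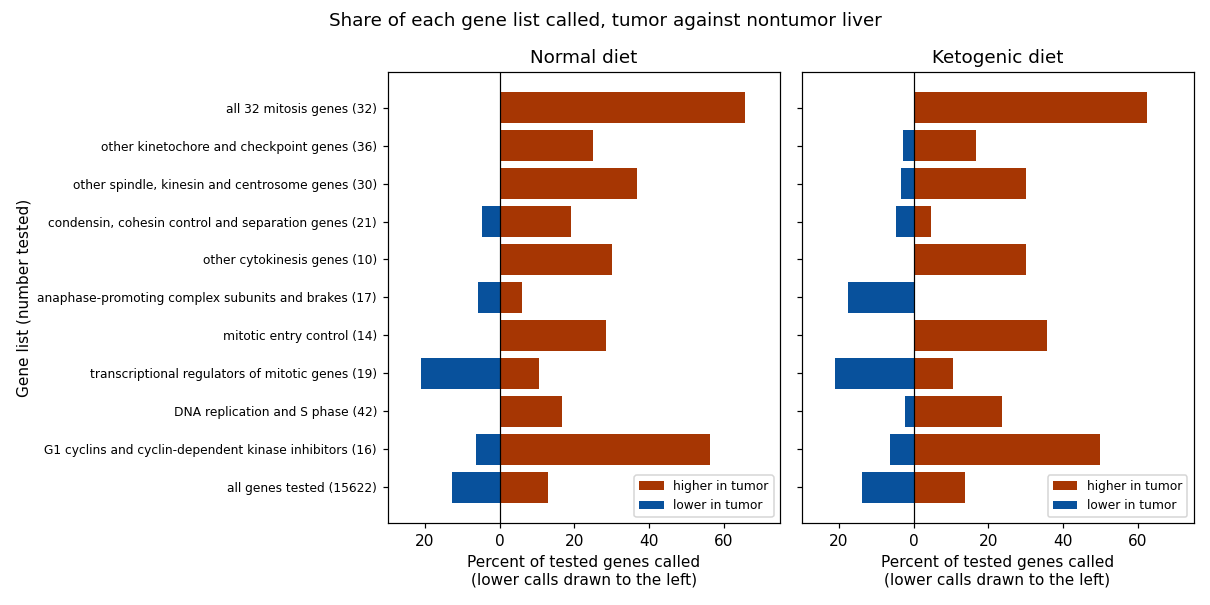
Percent of the tested genes of each list called higher (right) or lower (left) in tumor than in nontumor liver, on ND and on KD. The 32 mitosis genes have the longest bars to the right on both diets, with 21 and 20 genes, and none to the left.

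Some genes of these lists were called between the diets in tumors, but none of those named below kept the call on TPM as deposited. Calls held in 17 of 25 other settings for Anapc4, 19 for Bub3 and Ube2s, and 21 for Anapc2. They held in 22 for Pold1 and Nek2, 23 for Pttg1, and 24 for Pcna, Lin37 and Cenpt. With a common sum, Pttg1, Nek2, Bub3 and Ube2s were not called. Pcna, the replication clamp, was higher on KD by 1.19 (adjusted p = 0.00463), and Pold1, a replicative polymerase subunit, was lower, at -0.87 (adjusted p = 0.0166). Pttg1 was higher by 0.85 (adjusted p = 0.0139), Nek2, a centrosomal kinase, by 0.77 (adjusted p = 0.0184) and Bub3, of the checkpoint, by 0.73 (adjusted p = 0.024). Lin37, a subunit of the MuvB core, was lower, at -1.21 (adjusted p = 0.00215), as was Cenpt, of the inner kinetochore, at -0.80 (adjusted p = 0.017). In the anaphase-promoting complex list, 2 of 17 were higher, with Ube2s at 1.07, and 3 lower, with Anapc2 at -0.66 and Anapc4 at -0.73. Among the 42 S phase genes 1 was higher and 1 lower, beside the background shares of 5.79% and 7.17%.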

How the data were processed

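The authors deposited 1 table of TPM values per gene and library. Reads were checked with FastQC, aligned to mm10 with HISAT2, handled with SAMtools and counted with featureCounts, per the submitters' processing notes. Versions, the gene annotation, the use of strand and of multiply mapped reads, and the step from counts to TPM are not given in the sources used here, so reads of near-identical copies or overlapping genes may be split. Nontumor columns carry P where titles carry N, and were matched by diet and number.

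The deposited TPM were divided by median-of-ratios factors over 12119 genes above 0 in all 16 libraries (factor 0.128 for ND nontumor replicate 4). Genes above 0 in at least 8 libraries were tested with limma 3.58.1 (R 4.3.3), with a variance trend on log2(rescaled TPM + 1), all 16 libraries in 1 fit and no block. Whole reads were recovered for 20601 of 20601 genes (tolerance 0.001 reads) and used for depth and for voom. No libraries were copies (chi-square per degree of freedom 11.59 or more within groups). Gene positions came from GENCODE M21 and promoters from RefSeq, GRCm38.p6. Scripts were tested on simulated data.

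All 32 mitosis genes were named or counted, 16 with each library's value. In other lists up to 3 called genes with the smallest adjusted p per comparison could be named, and Foxm1, Mybl2, Ccnd1 and Cdkn1a were set. The members and lists were chosen with earlier results of these data known. Alternatives were the deposited scale, a common sum, a pseudocount of 0.1, TPM of at least 1 in 4 libraries, no filter, sample weights, fits of only the groups compared, a block for the replicate number, voom, and each library left out.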

Additional observations from a re-analysis of the deposited data

Results flagged for a closer look

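In 13 of 144 combinations of gene and group, 1 of the 4 libraries lay far from the other 3, by Dixon's 95% criterion, which chance alone meets in about 1 in 20 groups. All values are rescaled TPM. KD nontumor replicate 2 was far above its group for Ccnb1 (1.72), Cdc20 (5.47), Mki67 (5.78) and Nusap1 (1.5). KD tumor replicate 1 was far above the other KD tumors for Ttk (1.42) and Cdca3 (22.91). ND nontumor replicate 4, the library with the low listed TPM total, was above its group for Cdk1 (1.81) and Cdca3 (5.58) and below it for Kif20a (0.65). ND nontumor replicate 2 was low for Ube2c (0.84), and KD tumor replicate 3 was low for Nuf2 (0.41) and high for Ccnd1 (18.63). ND tumor replicate 3 was high for Prc1 (0.41), the lowest member in tumors.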

How the results depend on the processing

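Counts of mitosis genes called higher in tumors held in most settings. On ND (21) they ran from 15 to 21, and from 17 to 21 with 1 library left out. On KD (20) they were 4 on the deposited scale, 13 with a common sum and otherwise 15 to 21, and from 13 to 23 with 1 library left out. For KD against ND in tumors the common sum called 4, and leaving out ND tumor replicate 4 called 1 (Ndc80), for a range of 0 to 1. Nontumor and interaction counts were 0 in every setting run. Calls over all genes moved as follows. Tumor calls on ND (4023) were 1389 on the deposited scale, and on KD (4327) 974. KD against ND in tumors (2025) gave 73 there, and 976 to 2340 with 1 library left out. Nontumor calls (6) were 15 on the deposited scale, 11 with a common sum, 10 with no filter, 2 with only the groups compared, 312 with sample weights, and 5 to 15 with 1 library left out. The interaction (54) gave 2 on the deposited scale, 403 with a common sum, 83 with the TPM minimum, 32 with no filter, 278 with sample weights, 0 to 121 with 1 library left out and, on the deposited scale without ND nontumor replicate 4, 88. With the replicate number as a block the interaction gave 18, and members called higher were 21 on ND and 17 on KD. Same-numbered tumor and nontumor libraries of a diet correlated between -0.107 and 0.165, as deviations from their group means. Such correlations cannot show whether equal numbers mark 1 mouse, since tumor and liver of a mouse need not deviate alike. Signs turned for uncalled genes only: Nusap1 on ND under voom (-0.234), Prc1 on KD on the deposited scale (-0.095), with a common sum (-0.098) and with 1 library left out (-0.108 to 0.135), and Cdkn1a between the diets in tumors without KD tumor replicate 4 (0.074, in a range from -0.504). The interaction has no separate fit with only the groups compared, since it uses all 4. The cause of these changes was not tested. Low read numbers, a median of 36 per member and library, limit precision, though less for members with more reads, such as Mki67 (at most 1247).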
